A study of Rattus norvegicus with 12 samples.

Results

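The genes described here are those that mark microglia, the resident macrophages of the brain, and the border macrophages of its vessels and meninges, measured by RNA sequencing in rat (Rattus norvegicus) hippocampus. They were chosen by symbol from a list of 45, of which 44 had a row among the 23760 genes of the deposited files, and Itgam was not analysed here. The 44 fall into 5 role groups: 16 homeostatic microglial genes, 7 genes shared by most myeloid cells, 11 genes of the disease-associated programme, 6 border macrophage genes and 4 innate receptor genes. The series concerns impaired cognition after long work under water, and its title names microglia and neuroinflammation. Its 12 libraries were 6 labelled NC and 6 labelled AS3h, all from hippocampus. The labels used here do not spell out either name and give no strain, age, sex, treatment or time point. Separate animals are not stated for them either, and the p-values therefore describe only how these libraries spread, which may be technical.

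Microglia survey brain tissue through surface receptors for signals from neurons: the fractalkine receptor Cx3cr1, purine receptors such as P2ry12, and lipid-sensing receptors such as Trem2, which signals through the adaptor Tyrobp. Their survival depends on the receptor Csf1r, and their identity on transcription factors such as PU.1, encoded by Spi1, and Sall1. In mice, microglia that meet damage or plaques are known to lower several of the homeostatic genes and to raise a disease-associated set that includes Apoe, Itgax, Clec7a and Cst7. Perivascular and meningeal macrophages are a separate population, marked by the scavenger receptors Mrc1, Cd163 and Stab1, and by Lyve1, F13a1 and Pf4.

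Each library held 29.6 to 38.1 M reads assigned to genes. Values below are normalised read counts, meaning reads divided by the authors' factor for the library, and differences are log2 fold changes of AS3h over NC with their standard error, on a scale to which 1 was added before the log. A gene is called where limma gave an adjusted p under 0.05 over all 19050 genes tested (Benjamini-Hochberg). All 10 hippocampal neuron markers were detected in every library, and 40 of the 44 members had reads in all 12. Markers of other cells varied between libraries. AS3h 2 was the highest of the 12 in all 7 red cell genes and in 8 of 9 genes of meningeal and perivascular fibroblasts, whose summed level was 21135 there against 5213 to 8168 in NC. The summed level of 12 choroid plexus genes was 72353 in AS3h 5 and 8006 in AS3h 4, against 297 to 1811 in the other 10 libraries. AS3h 5 was also the highest of the 12 in all 8 oligodendrocyte genes, with a summed level of 608712 against 336928 to 430499 in NC. Ccr2, which defines inflammatory monocytes, had 0 reads in all NC libraries together and 1 in AS3h.

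The genes for the surface receptors Cx3cr1 and Gpr34 fell in AS3h hippocampus, and no member was called higher. Of the 44 members, all of which passed the filter on low values, 2 were lower, 0 were higher and 42 did not pass. The 2 make up 4.55% of the members, against a background of 4.22% of all genes called lower and 5.04% called higher (9.26% in either direction), so the share of calls is near the background and is not a result about these genes. At an unadjusted p under 0.05, 9 members (20.5%) were lower and 3 (6.82%) higher, against 12.1% and 12.8% of all genes. The groups overlapped in every member, while 5.05% of all genes tested had groups that did not overlap, 2.04% with AS3h lower. All 6 AS3h libraries lay below the NC median in 9 members (20.5%) and above it in 2 (4.55%), against 12.9% of all genes each way. In bulk RNA, fewer cells of a type and less RNA per cell cannot be told apart.

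By direction alone, log2 fold changes were below 0 in 30 of the 44 members (68.2%, against 50.8% of all genes tested), and their median was -0.11 against -0.0043 for all genes. The median of the members was -0.18 without AS3h 2, -0.07 without AS3h 3 and -0.23, with 36 below 0, when red cell and choroid plexus levels were covariates. Values below 0 were found for 13 of 16 homeostatic genes (median -0.27), 6 of 7 shared myeloid genes (median -0.19) and 8 of 11 disease-associated genes (median -0.05). Of the 6 border macrophage genes 1 was below 0 (median 0.24), and of the 4 innate receptor genes 2 were (median 0.15). The border macrophage median changed sign to -0.11 without AS3h 2, with 4 genes below 0, and to -0.31 with the covariates, with 5 below 0. Without AS3h 3 it rose to 0.38, with 0 of the 6 genes below 0. With the covariates the medians of the disease-associated and innate receptor groups were -0.25 and -0.20. Without AS3h 3 the disease-associated median was 0.001, with 5 of 11 genes below 0. These counts and medians describe the lists, without a test. The number of members called lower was 4 without NC 1, 1 without NC 2 or NC 4, and 5 without AS3h 1 or without AS3h 2. It was 0 with the covariates, a fit that called 89 genes in all, in place of 1764.

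**Figure D1:**
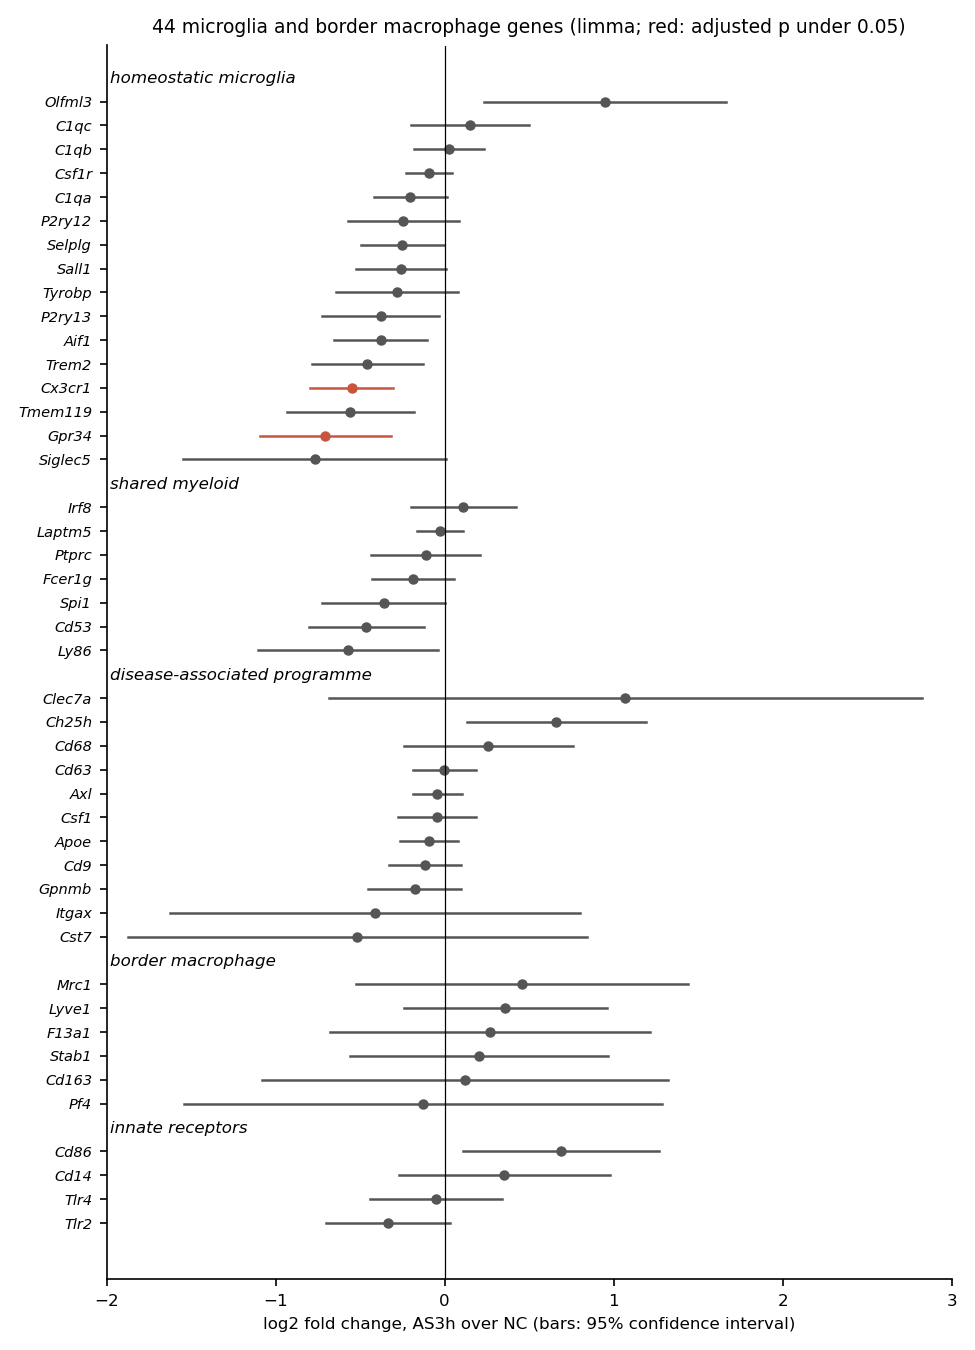
Log2 fold change of AS3h over NC for each of the 44 members, grouped by role, with 95% confidence intervals from limma. Red points mark Cx3cr1 and Gpr34, the 2 genes called lower; the homeostatic genes lie mostly left of 0 and the border macrophage genes mostly right of it, with wide intervals; the median of the latter was below 0 without AS3h 2 or with the covariates.

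**Figure D2:**
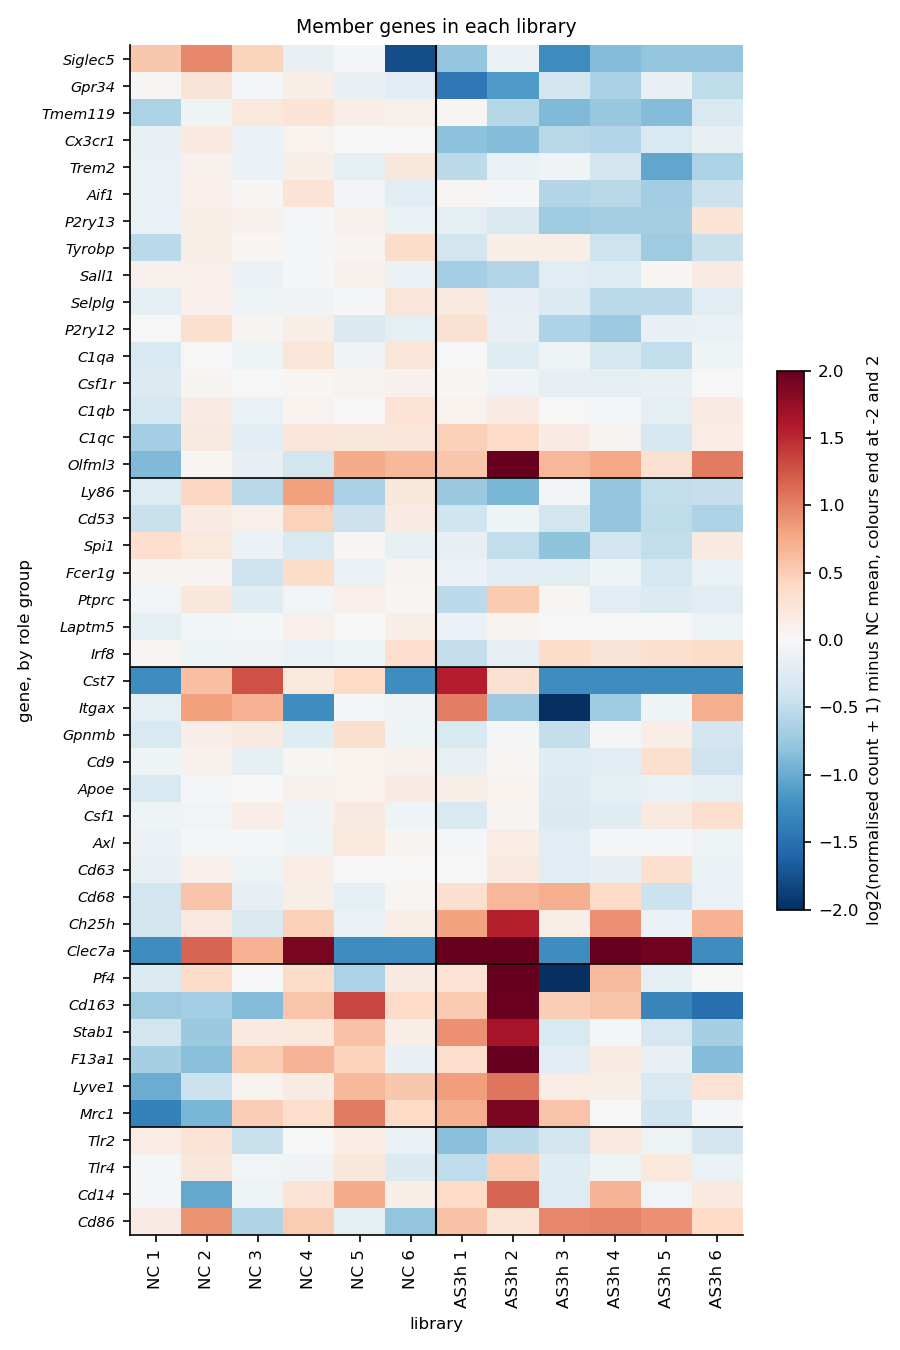
Log2 level of each member in each of the 12 libraries, shown as the difference from its NC mean. The border macrophage genes stand out in AS3h 2, where all 6 were at their highest, while the homeostatic genes vary from library to library in both groups.

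Cx3cr1 encodes the receptor for fractalkine, the chemokine that neurons display to microglia. Its normalised count was 486, 618, 499, 566, 544 and 542 in NC 1 to 6, and 305, 297, 366, 359, 436 and 488 in AS3h 1 to 6. All AS3h libraries but AS3h 6 were below the lowest NC library, and AS3h 6 lay just above it. The log2 fold change was -0.55 ± 0.12 (n = 6 per group, limma adjusted p = 0.00883). With the red cell and choroid plexus levels as covariates it was -0.46 and did not pass (adjusted p = 0.238). Leaving out any 1 library did not end the call.

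Gpr34 encodes a receptor for lysophosphatidylserine, a lipid exposed by damaged cells. Its normalised count was 492, 577, 475, 529, 436 and 417 in NC 1 to 6, and 179, 221, 377, 307, 436 and 342 in AS3h 1 to 6. AS3h 1 and AS3h 2 were the lowest of the 12 libraries, and AS3h 5 was level with NC 5. The log2 fold change was -0.71 ± 0.18 (n = 6 per group, limma adjusted p = 0.0257). Gpr34 did not pass without NC 2 (adjusted p = 0.0619), without NC 4 (0.0543) or with the covariates (0.234).

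To show the start sites of the genes that fell, promoter windows were taken from RefSeq on the rat build GRCr8, each from 250 bases before to 50 after an annotated gene start, written 5′ to 3′ on the strand of the gene. They were searched on both strands for GAGGAA, a form of the site that PU.1 binds, and for the longer GAGGAAGT, which contains it. Capitals mark the matches, and other forms of the site were not searched. A window was found for 32 of the 44 members. GAGGAA occurred in 19 of the 32 (59.4%) and in 27.5% of the 27457 windows of all genes, and GAGGAAGT in 2 of the 32 (6.25%) and in 2.44% of all. Cx3cr1 and Gpr34 are shown as the called genes, and Cd53 and F13a1 as the members with the longer motif. The Cx3cr1 window (chr8:128677017-128677316, minus strand) held no match, and the Gpr34 window (chrX:11785787-11786086, minus strand) held GAGGAA on the opposite strand, starting 12 bases before the gene start. The longer motif began 44 bases before the start of Cd53, again on the opposite strand (chr2:197087847-197088146, minus strand), and 7 bases before that of F13a1 (chr17:28020947-28021246, plus strand). A match in letters is a description of the window.
Cx3cr1: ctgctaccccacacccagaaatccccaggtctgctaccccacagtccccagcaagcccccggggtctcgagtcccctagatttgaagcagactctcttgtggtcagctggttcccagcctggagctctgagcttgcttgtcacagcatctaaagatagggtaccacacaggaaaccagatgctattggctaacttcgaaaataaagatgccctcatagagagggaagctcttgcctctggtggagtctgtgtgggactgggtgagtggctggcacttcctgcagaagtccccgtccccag
Gpr34: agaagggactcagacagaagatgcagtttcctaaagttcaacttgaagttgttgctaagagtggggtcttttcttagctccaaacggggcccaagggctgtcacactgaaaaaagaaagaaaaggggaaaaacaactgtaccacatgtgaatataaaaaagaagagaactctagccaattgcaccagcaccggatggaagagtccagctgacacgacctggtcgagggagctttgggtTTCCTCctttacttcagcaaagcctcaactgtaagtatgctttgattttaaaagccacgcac
Cd53: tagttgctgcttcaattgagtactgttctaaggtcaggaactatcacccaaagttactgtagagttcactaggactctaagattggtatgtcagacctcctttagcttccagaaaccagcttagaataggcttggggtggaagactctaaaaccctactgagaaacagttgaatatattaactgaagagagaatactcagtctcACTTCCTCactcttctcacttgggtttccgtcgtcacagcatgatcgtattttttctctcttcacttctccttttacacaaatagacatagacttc
F13a1: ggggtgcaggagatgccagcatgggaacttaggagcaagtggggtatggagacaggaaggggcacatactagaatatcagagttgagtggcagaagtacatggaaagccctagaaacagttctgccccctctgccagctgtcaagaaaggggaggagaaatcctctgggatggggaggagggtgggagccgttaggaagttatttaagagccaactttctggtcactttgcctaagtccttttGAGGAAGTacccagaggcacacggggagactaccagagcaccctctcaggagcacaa

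Among the other homeostatic genes, those with the smallest p encode membrane receptors and cytoplasmic proteins used as microglial stains, and none passed. Tmem119, a transmembrane protein known as a marker of resident microglia, had a lowest, median and highest normalised count of 579.8, 979.8 and 1092 in NC and 490.0, 569 and 929 in AS3h (difference -0.56 ± 0.17, adjusted p = 0.061). NC 1 was the lowest NC library and AS3h 1 the highest AS3h library, and without either one the gene passed (adjusted p = 0.013 and 0.0171). Trem2, the lipid receptor of the disease response, ranged over 171, 194 and 230.1 in NC and 94.97, 144 and 187 in AS3h (-0.46 ± 0.15, adjusted p = 0.0759). It passed without AS3h 2 (adjusted p = 0.0485) or AS3h 3 (0.041), its highest AS3h libraries. Aif1, which encodes the actin-binding protein IBA1, ranged over 379, 433 and 529 in NC and 269.8, 311 and 444 in AS3h (-0.38 ± 0.13, adjusted p = 0.0805). Here 4 AS3h libraries lay below every NC library, while AS3h 1 and AS3h 2 lay within the NC range, and the gene passed without AS3h 1 (adjusted p = 0.032) or AS3h 2 (0.0379). Tmem119, Trem2 and Aif1 each passed in 3 of 22 alternative fits. In the other fits their limma adjusted p reached 0.233, 0.535 and 0.304.

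The purine receptor genes P2ry12 and P2ry13, neighbours on chromosome 2 in GRCr8, did not pass. P2ry12, which directs microglial processes toward ATP and ADP, was at -0.24 ± 0.15 (adjusted p = 0.351), with 426 to 654 in NC and 315 to 642 in AS3h. P2ry13 had a lowest, median and highest count of 112, 124 and 134 in NC and 73.9, 88.0 and 147 in AS3h (-0.38 ± 0.16, adjusted p = 0.165). In P2ry13 5 AS3h libraries were below every NC library and AS3h 6 was above every one; without AS3h 6 it passed (-0.51, adjusted p = 0.0395). Selplg and Tmem119 are neighbours on chromosome 12. Selplg, a ligand of selectins, was at -0.25 ± 0.12 (adjusted p = 0.19) and passed without AS3h 1 (adjusted p = 0.042). P2ry13 and Selplg each passed in 1 of 22 alternative fits. In the other fits their limma adjusted p reached 0.481 and 0.688.

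The sialic acid receptor gene Siglec5 and the secreted protein gene Olfml3 had the widest differences of the homeostatic group, and neither passed. Siglec5 ranged over 39.5, 161 and 269 in NC and 56.5, 78.8 and 125 in AS3h (-0.77 ± 0.36, adjusted p = 0.205). NC 6 held the lowest value of all 12 libraries, and without it the difference was -1.12 (adjusted p = 0.00754). Siglec5 passed in 1 of 22 alternative fits, and in the others its limma adjusted p reached 0.436. Olfml3 ran in the other direction, at 34.8, 62.1 and 109 in NC and 80.8, 108 and 334 in AS3h (0.95 ± 0.34, adjusted p = 0.0925). The highest value was that of AS3h 2, the library with most fibroblast marker reads, and without it the difference was 0.67 (adjusted p = 0.124). All 6 AS3h libraries were above the NC median.

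Sall1, a transcription factor that keeps microglial identity in mice, showed a split within AS3h. It was 835 to 969 in NC, and in AS3h 1 to 6 it was 564, 601, 781, 762, 937 and 1014, so that 4 libraries lay below and 1 above the NC range (-0.26 ± 0.12, adjusted p = 0.219). Cx3cr1, Gpr34 and Sall1 were the 3 of 16 homeostatic genes whose lowest AS3h library was AS3h 1 or AS3h 2. In the other 13 it was AS3h 3, AS3h 4 or AS3h 5, and AS3h 1 was the highest AS3h library of 7, among them Aif1, P2ry12 and Tmem119. AS3h 5 was the lowest AS3h library in 8 of the 16. In NC, NC 1 was the lowest library in 9 of the 16. The homeostatic genes therefore did not share 1 order of libraries, and the summed level over the 16 was 9203 to 11698 in NC and 8678 to 10388 in AS3h.

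**Figure D3:**
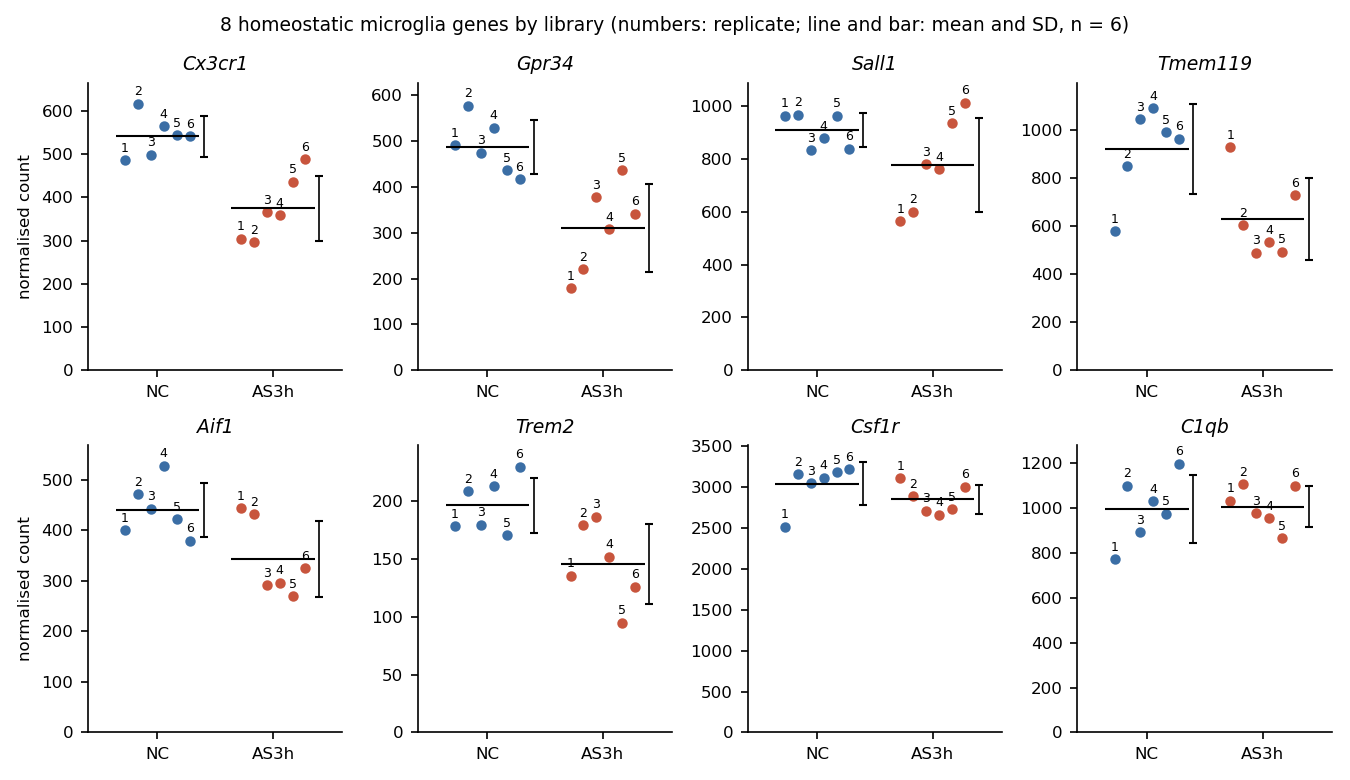
Normalised count of 8 homeostatic genes in each library, NC and AS3h side by side, with the mean and SD of each group (n = 6). Points of Cx3cr1 and Gpr34 overlap little between groups, while those of Csf1r and C1qb overlap in full.

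Csf1r, the receptor for the survival factors CSF1 and IL-34, differed little between the groups. It ranged over 2516, 3137 and 3220 in NC and 2661, 2807 and 3109 in AS3h, with a difference of -0.09 ± 0.06 (95% interval -0.23 to 0.05, adjusted p = 0.411). NC 1 was the lowest of the 12 libraries, and all AS3h libraries were below the NC median. Tyrobp, the adaptor of Trem2, was at -0.28 ± 0.17 (adjusted p = 0.327), with 117 to 221 in NC and 104 to 187 in AS3h.

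The chains of C1q, which starts the classical complement cascade and tags synapses for removal by microglia, are encoded side by side on chromosome 5, and their differences lay on both sides of 0. C1qa was at -0.20 ± 0.10 (adjusted p = 0.231), C1qb at 0.03 ± 0.10 (95% interval -0.18 to 0.23) and C1qc at 0.15 ± 0.16 (95% interval -0.20 to 0.50). None passed, and AS3h 5 was the lowest AS3h library for each chain. NC 1 was the lowest of the 12 libraries for C1qb and C1qc, at 772 and 329.

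None of the 7 shared myeloid genes passed. Cd53, a tetraspanin of leukocytes, ranged over 216, 324 and 407 in NC and 169.9, 215 and 279.6 in AS3h (-0.46 ± 0.16, adjusted p = 0.0833), with all AS3h libraries below the NC median. It passed without NC 1 (adjusted p = 0.0413), NC 5 (0.0453) or AS3h 2 (0.0479). Cd53 passed in 4 of 22 alternative fits, and in the others its limma adjusted p reached 0.262. Ly86, the MD-1 partner of a Toll-like receptor homologue, ranged over 40.5, 64.6 and 114 in NC and 33.7, 41.8 and 61.9 in AS3h (-0.57 ± 0.25, adjusted p = 0.171). Its spread was wide in NC, where NC 1, NC 3 and NC 5 lay within the AS3h range. Spi1 ranged over 76.0, 91.1 and 118 in NC and 53.2, 69.2 and 107 in AS3h (-0.36 ± 0.17, adjusted p = 0.206). Fcer1g, the common gamma chain of Fc receptors, was at 207 to 355 in NC and 214 to 257 in AS3h (-0.19 ± 0.11, adjusted p = 0.327).

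The remaining 3 shared genes were near 0. Laptm5, a lysosomal protein of blood cells, was at -0.03 ± 0.06 (95% interval -0.17 to 0.11), and Ptprc, which encodes the leukocyte antigen CD45, at -0.11 ± 0.15. Irf8, an interferon regulatory factor needed by microglia, was at 0.11 ± 0.15 and split within AS3h. AS3h 1 and AS3h 2 were at 157 and 194, below every NC library, and the other 4 were at 260.3 to 280.4, against 199.5 to 274 in NC.

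None of the 11 disease-associated genes passed. Ch25h, the enzyme that makes 25-hydroxycholesterol, had the smallest p of the 11, at 46.0, 59.8 and 82.9 in NC and 54.6, 101 and 176 in AS3h (0.66 ± 0.25, adjusted p = 0.11). Of its AS3h libraries 4 were above every NC library, AS3h 2 being the highest, and without AS3h 5, the lowest, the gene passed (0.82, adjusted p = 0.0423). Ch25h passed in 1 of 22 alternative fits, and in the others its limma adjusted p reached 0.746. Gpnmb, a transmembrane glycoprotein of lipid-laden macrophages, was at 296 to 461 in NC and 265 to 401 in AS3h (-0.18 ± 0.13, adjusted p = 0.427). Apoe, the lipid carrier that astrocytes also make in large amounts, was at -0.09 ± 0.08 (95% interval -0.27 to 0.08, adjusted p = 0.515), with 61222 to 84527 in NC and 62564 to 81982 in AS3h.

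Clec7a, Itgax and Cst7, which are raised strongly in the mouse programme, had few reads. Clec7a, the beta-glucan receptor Dectin-1, had 17 reads in NC and 42 in AS3h, with 3 and 2 libraries at 0 (1.07 ± 0.82, adjusted p = 0.458). Itgax, an integrin chain, had 40 and 34 reads, and Cst7, a cystatin, 12 and 8. The 95% intervals were -0.68 to 2.82 for Clec7a, -1.63 to 0.80 for Itgax and -1.88 to 0.84 for Cst7. The intervals include no change, and also large changes, such as a rise of up to 2.82 for Clec7a. The other genes of the group were detected in every library and did not pass. Axl, a receptor for apoptotic cells, was at -0.04 ± 0.07, the tetraspanin genes Cd9 and Cd63 at -0.11 ± 0.10 and -0.0012 ± 0.09, the lysosomal marker Cd68 at 0.26 ± 0.23 and the growth factor Csf1 at -0.05 ± 0.11. AS3h 5, the library with most choroid plexus and oligodendrocyte marker reads, was the highest of the 12 for both Cd9 and Cd63, at 4135 and 2486. With the red cell and choroid plexus covariates the differences were -0.27 for Cd9 and -0.22 for Cd63 (adjusted p = 0.277 and 0.369), and the part of oligodendrocyte RNA was not tested.

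None of the 6 border macrophage genes passed, and 1 library was the highest in all of them. AS3h 2 held the highest value of all 12 libraries for each of the 6 genes, and their summed level was 1278 there, against 215 to 656 in NC and 293 to 645 in the other AS3h libraries. Lyve1, a hyaluronan receptor, ranged over 47.9, 105 and 151 in NC and 77.8, 112 and 203 in AS3h (0.36 ± 0.28, adjusted p = 0.468). Mrc1, the mannose receptor CD206, ranged over 42.3, 143 and 226 in NC and 82.8, 137 and 409 in AS3h (0.46 ± 0.45, adjusted p = 0.58). The medians of both groups were close in both genes. F13a1, a coagulation factor chain, ranged over 21.6, 44.8 and 63.1 in NC and 21.0, 39.8 and 199 in AS3h (0.27 ± 0.44, adjusted p = 0.762). Stab1, a scavenger receptor, ranged over 58.6, 110.5 and 148 in NC and 62.2, 87.8 and 312 in AS3h (0.20 ± 0.36, adjusted p = 0.778).

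Without AS3h 2 the differences were 0.22 for Lyve1 and 0.17 for Mrc1, and below 0 for F13a1 (-0.14), Stab1 (-0.09) and Cd163 (-0.25). Cd163, the haemoglobin scavenger receptor, was at 0.12 ± 0.56 with AS3h 2 included. Pf4, a chemokine also carried by platelets, was at 0 in AS3h 3 and at 45.3 in AS3h 2, with 6.40 to 13.8 in NC (-0.13 ± 0.66). Without AS3h 3 the Pf4 difference was 0.55. Marker levels of red cells and of meningeal and perivascular fibroblasts were also highest in AS3h 2. With the red cell and choroid plexus covariates 5 of the 6 differences were below 0, at -0.10 for Mrc1, -0.10 for Cd163, -0.93 for F13a1, -0.51 for Stab1 and -2.29 for Pf4, with Lyve1 at 0.07, and none passed (adjusted p = 0.16 to 0.972). The part of fibroblast RNA in these values was not tested. The NC libraries varied too: NC 1 and NC 2 had summed border levels of 215 and 239.8, under those of all the other libraries.

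**Figure D4:**
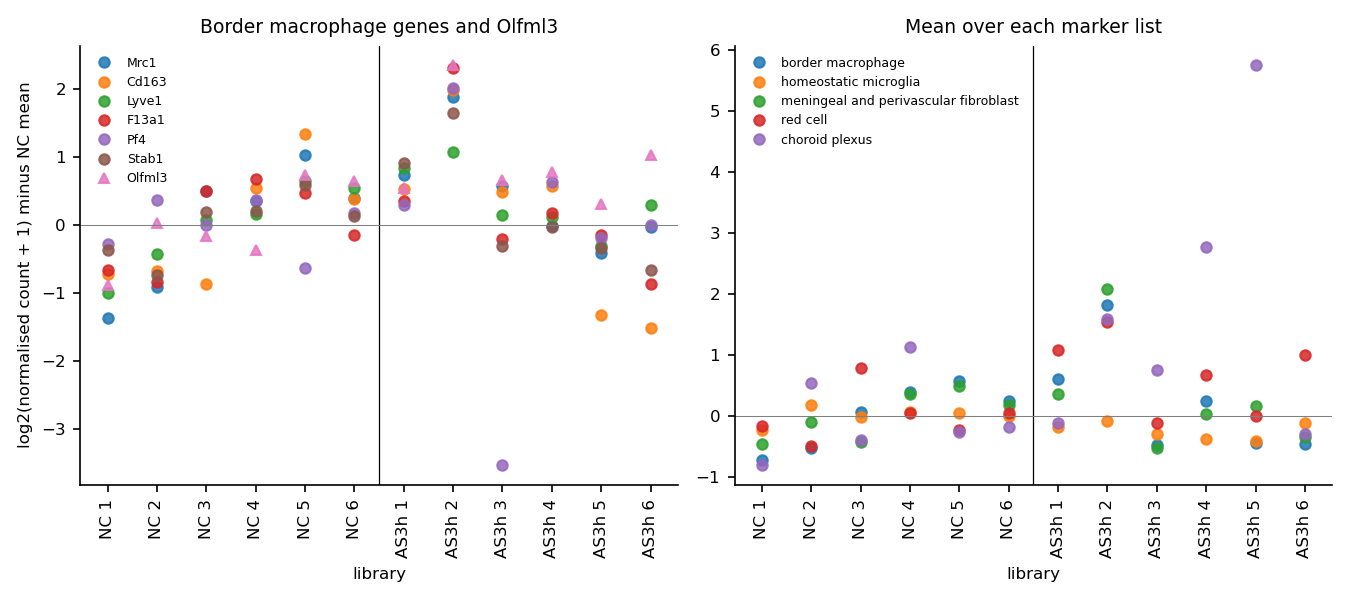
Left, log2 level of the 6 border macrophage genes and Olfml3 in each library as the difference from the NC mean; right, the mean of the same quantity over the border macrophage list and over marker lists of other cells. AS3h 2 is the highest library for all 7 genes and for the red cell and fibroblast lists, and AS3h 5 for the choroid plexus list.

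Of the 4 innate receptor genes none passed, and 2 lay on each side of 0. Cd86, a co-stimulatory ligand for T cells, ranged over 19.7, 35.2 and 66.4 in NC and 42.4, 60.0 and 70.7 in AS3h (0.69 ± 0.27, adjusted p = 0.13). All its AS3h libraries were above the NC median and 3 were above every NC library. Tlr2, a receptor for bacterial lipoproteins, ranged over 90.02, 129.9 and 148 in NC and 68.3, 95.1 and 140.5 in AS3h (-0.34 ± 0.17, adjusted p = 0.241). Cd14, the endotoxin co-receptor, ranged over 15.5, 34.0 and 55.4 in NC and 27.2, 40.4 and 74.2 in AS3h, the highest being AS3h 2 (0.35 ± 0.29, adjusted p = 0.495). Tlr4, the endotoxin receptor, was at 37.8 to 54.4 in NC and 32.2 to 64.6 in AS3h (-0.05 ± 0.18, adjusted p = 0.902).

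The pathways around these genes were read from 7 further lists, of which 84 rows were tested, 4 of them called higher (4.76%, against 5.04% of all genes), 8 lower (9.52%, against 4.22%) and 72 not passing. With the red cell and choroid plexus covariates 11 of these 12 genes did not pass, and without AS3h 4 and AS3h 5 together 8 did not. Without NC 2 there were also 8 that did not pass, and without NC 4 there were 7. Among 11 genes for the ligands of microglial receptors and their partners none passed; the smallest p was that of Cd47, a signal against engulfment (-0.11 ± 0.05, adjusted p = 0.219). The ligand genes themselves were close between groups, with Cx3cl1, which encodes fractalkine, at -0.01 ± 0.06. Of 9 genes tested around Tyrobp and Trem2, Adam10, a membrane protease that sheds TREM2 and many neuronal proteins, was lower. Its normalised count was 2059 to 2480 in NC and 1447 to 2005 in AS3h, without overlap (-0.38 ± 0.07, adjusted p = 0.00566). None of the 10 complement rows was called, C4b having the largest difference (0.66 ± 0.36, adjusted p = 0.273), and its reads may be shared with its near-identical neighbour C4a.

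Purine sensing had 2 of 8 genes lower (25.0%, against 4.22% of all genes) and none higher. This list, too, was drawn up with earlier results of these data known. It leaves out the purine receptor genes P2ry12 and P2ry13, which are members and did not pass. P2rx7, the ATP-gated channel that precedes release of interleukin-1 beta, was at 379 to 522 in NC and at 276 to 370.25 in AS3h, without overlap (-0.51 ± 0.10, adjusted p = 0.0045). It passed under all 22 alternatives, the covariates included (adjusted p = 0.0435). P2ry1, a receptor for ADP, was also lower (-0.46 ± 0.13, adjusted p = 0.04), and was not called in 8 of the 12 fits with 1 library left out (adjusted p = 0.0611 to 0.0906), with no filter (0.0507) or with the covariates (0.138). Both are also expressed outside microglia.

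Of 19 other microglia-enriched genes 4 were lower (21.1%, against 4.22% of all genes) and 0 higher, 16 lay below 0 (84.2%, against 50.8%), and the median was -0.20. The list was drawn up with earlier results of these data known. Tgfbr1, a chain of the receptor for TGF-beta, which sustains the microglial state in mice, was at 1306 to 1747 in NC and 948 to 1244 in AS3h, without overlap (-0.48 ± 0.09, adjusted p = 0.00341). Hpgds, a prostaglandin D synthase, was low in level, at 16.9 to 35.4 in NC and 5.79 to 20.1 in AS3h (-1.41 ± 0.32, adjusted p = 0.0125). It did not pass without AS3h 4 and AS3h 5 together (-1.16, adjusted p = 0.0677) or with the covariates (-0.89, adjusted p = 0.365). The Fc receptor genes Fcgr1a (-0.75 ± 0.22, adjusted p = 0.0414) and Fcgr3a (-0.76 ± 0.20, adjusted p = 0.0282) belong to a family of similar copies that can share reads. They were not called in 8 and 5 of the 12 fits with 1 library left out. With the covariates Adam10 (adjusted p = 0.155), Tgfbr1 (0.153), Fcgr1a (0.273) and Fcgr3a (0.336) did not pass either, and without AS3h 4 and AS3h 5 together the Fc receptor genes did not (0.0898 and 0.1001).

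The transcription factor and phagolysosome lists held the calls in the other direction. Of 12 myeloid transcription factor genes, Cebpb, an inflammatory C/EBP factor, was higher (0.51 ± 0.15, adjusted p = 0.043), as was Bhlhe41 (0.32 ± 0.09, adjusted p = 0.0307), and none was lower. They were not called in 9 and 7 of the 12 fits with 1 library left out. Of 15 phagolysosome and lipid genes, Lgals3, which encodes galectin-3, and the cathepsin gene Ctsb were higher and the cathepsin gene Ctsz was lower. Lgals3 was at 23.5 to 65.6 in NC and 52.1 to 118 in AS3h, highest in AS3h 2 (1.02 ± 0.27, adjusted p = 0.0265). With the covariates its difference was 0.42 (adjusted p = 0.637). These 3 were not called in 4, 11 and 9 of those fits. None of the 5 called genes of these lists passed with the covariates (adjusted p = 0.202 to 0.637) or without AS3h 4 and AS3h 5 together (adjusted p = 0.0547 to 0.146).

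**Figure D5:**
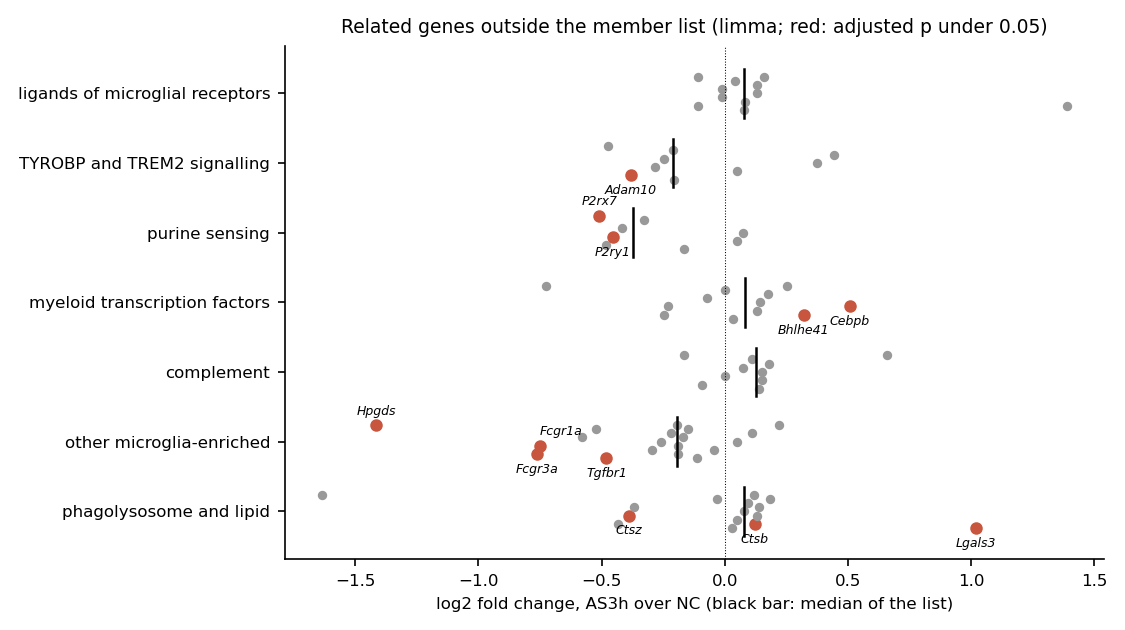
Log2 fold change of AS3h over NC for the genes of the 7 related lists, with the called genes marked and named. Lower calls sit in the purine sensing, Tyrobp and Trem2, and other microglia-enriched lists, and higher calls in the transcription factor and phagolysosome lists, the latter of which also holds 1 lower call, Ctsz.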

How the data were processed

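Hippocampal RNA was sequenced in 12 samples (6 NC, 6 AS3h). Libraries were strand-specific and made from 1.3 µg of total RNA each, per the labels' protocols. FastQC 0.11.5, STAR and the build mRatBN7.2 appear in the submitters' processing notes, without their roles; the sources used here do not give how reads were counted, with which strand setting or annotation. The deposited values were log2 values per gene, 1 library per file. From the values, each was log2(1 + reads / factor), with 1 factor per library, and 100% of the values gave whole reads to within 0.02 read.

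The deposited log2 values were fitted with limma 3.58.1 in R 4.3.3 (robust empirical Bayes with a trend, group as the only term). Genes were kept at a normalised value of at least 1 in at least 6 libraries, and Benjamini-Hochberg adjustment ran over all 19050 genes at a threshold of 0.05. Fold changes on this scale understate the change of low genes, and statements on reads cover only the error of counting. The members and lists were chosen with earlier results of these data known. Values are given for called members, for the 4 of smallest p in each role group and, from each related list, for called genes or else the 1 of smallest p; other genes named singly were picked after their values were seen. Hcst, Trem1 and Ms4a7 did not pass the filter. Neutrophil, monocyte, lymphocyte, endothelial, astrocyte and oligodendrocyte marker lists were also read. Of 7 tested genes of the neutrophil list, Csf3r was lower (-0.69, limma adjusted p = 0.0186) and 5 lay above 0 without passing (median of the 7, 0.89). Csf3r had 592 reads in NC and 334 in AS3h, and which cells they came from was not tested. Mmp8, which did not pass the filter, had 0 reads in NC and 34 in AS3h, and Cxcr2 3 and 17. Flt1 of endothelium was lower and Esam higher, and no astrocyte or oligodendrocyte gene was called. In the lists used in the text, 1 of 11 choroid plexus genes tested and 1 of 10 neuronal genes was higher, and none of the 7 red cell or 9 fibroblast genes was called. Of the 5 monocyte genes with a row 2 passed the filter, as did 2 of 9 lymphocyte genes, and none of these 4 was called.

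No library was counted as deposited again, since even the closest pair of replicates had a chi-square of 11.4 for each degree of freedom. The fit was tested on simulated data. Promoter windows came from RefSeq (GRCr8), matched by symbol. Figures used matplotlib 3.10.9 (Python 3.11.15).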

Additional observations from a re-analysis of the deposited data

Results flagged for a closer look

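Within each group of 6 libraries, every member was examined for 1 library far from the rest by Dixon's ratio, the gap to the nearest library over the range of the group on the log2 scale. Of 88 such groups 3 passed the 95% critical value, while chance flags about 1 in 20. Csf1r was at 2516 in NC 1 and at 3046 to 3220 in the other NC libraries (ratio 0.776). Olfml3 was at 333.6 in AS3h 2 and at 80.82 to 134.1 in the other AS3h libraries (ratio 0.644). Irf8 was at 273.9 in NC 6 and at 199.5 to 223.7 in the other NC libraries (ratio 0.64), which places NC 6 among the 4 higher AS3h libraries.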

How the results depend on the processing

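Depth was similar between groups; Clec7a, Itgax and Cst7 had few reads and wide intervals. The count of 2 members lower was kept with no filter, a filter of 10, a pseudocount of 0.1, recomputed or total-read factors, a fit that was not robust, and without AS3h 4 and AS3h 5 together. It was 6 with limma-voom and quality weights (adding Tmem119, Trem2, Aif1 and Cd53), 6 at an adjusted p of 0.1, 1 with the replicate block and 0 with the red cell and choroid plexus covariates; the cause was not tested. The count higher was 0 in each of these except at an adjusted p of 0.1, where it was 1 (Olfml3). Leaving out 1 library gave 1 to 5 members lower and 0 to 1 higher (Ch25h, without AS3h 5). Calls over all genes numbered 1764, 866 without AS3h 4 and AS3h 5 together, 89 with the covariates and 1038 to 1795 with 1 library left out, the lowest being without NC 2 (1038) and AS3h 4 (1107). No setting reversed a called member. Titles number the samples of both groups 1 to 6, but deviations of libraries with the same number correlated at only -0.0269 to 0.053. Only the 2 libraries numbered 2 correlated best with their own number. Such values cannot exclude a pairing by design, which the labels do not state. With the replicate block Gpr34 had an adjusted p of 0.0565, and calls over all genes were 1296.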
